A study of Mus musculus with 12 samples.

Results

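Cux2 and 5 other transcription factor genes of upper-layer cortical neurons, namely Cux1, Pou3f1, Pou3f2, Pou3f3 and Rorb, were followed in the embryonic mouse cortex. They are 6 of the 24411 genes in the deposited tables, and all 6 passed the filter on low counts. Cux2 was selected on its measured counts, chosen by the genotype difference it showed at E14.5, so its E14.5 values, and every change or ratio that uses them, are a description and carry no test. The other factors were chosen to be compared with it. RNA sequencing covered bulk cerebral cortex of 12 single mouse embryos, 3 in each of 4 groups: WT and HARE5Hs/Hs, each at E12.5 and at E14.5. The name HARE5 belongs to a stretch of regulatory DNA that drives Fzd8, a gene for a Wnt receptor, and its human version differs from that of other primates. HARE5Hs/Hs denotes knock-in embryos that carry the human-type enhancer on both chromosomes, in every cell and not only in the cortex. The labels name no other allele and no treatment, and give neither strain, sex nor litter. The cortex was not sorted, so fewer cells of a type and less RNA per cell cannot be told apart in any value below.

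The cortex builds its neuron layers from the inside out: deep-layer neurons are born first, and upper-layer neurons follow. Cux1 and Cux2 encode paired relatives of the Drosophila cut protein, with cut repeats and a homeodomain, and both are textbook markers of upper-layer neurons and of the subventricular progenitors that produce many of them. CUX1 is also known as CCAAT displacement protein, and its gene also makes a Golgi protein, CASP, by alternative splicing. Pou3f1 (Oct6 or SCIP), Pou3f2 (Brn2) and Pou3f3 (Brn1) encode POU-domain factors. Pou3f2 and Pou3f3 act in partly overlapping ways in the production, migration and identity of upper-layer neurons, and they are expressed in progenitors and in neurons. Rorb encodes an orphan nuclear receptor that marks layer 4 neurons later in development.

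Promoters of 5 of the 6 genes were found in RefSeq (GRCm38.p6), and 3 are shown because Cux2 leads the comparison and because Pou3f2 and Pou3f3 rose together with age. Each run is the 250 bases before an annotated transcript start, 5′ to 3′ on the gene's strand, and capitals mark the letters CCAAT or, for the other strand, ATTGG. The Cux2 window is chr5:122049852-122050101 on the minus strand, the Pou3f2 window chr4:22488367-22488616 on the minus strand and the Pou3f3 window chr1:42695518-42695767 on the plus strand.
Cux2: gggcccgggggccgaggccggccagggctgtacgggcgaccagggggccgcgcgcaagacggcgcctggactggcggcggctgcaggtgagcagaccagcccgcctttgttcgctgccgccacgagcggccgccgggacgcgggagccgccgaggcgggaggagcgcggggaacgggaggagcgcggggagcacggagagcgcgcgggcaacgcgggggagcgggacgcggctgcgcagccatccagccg
Pou3f2: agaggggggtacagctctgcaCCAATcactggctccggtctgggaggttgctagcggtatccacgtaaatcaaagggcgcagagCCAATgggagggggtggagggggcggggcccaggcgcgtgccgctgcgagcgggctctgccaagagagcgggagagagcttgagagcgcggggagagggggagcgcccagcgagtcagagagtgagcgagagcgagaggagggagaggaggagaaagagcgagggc
Pou3f3: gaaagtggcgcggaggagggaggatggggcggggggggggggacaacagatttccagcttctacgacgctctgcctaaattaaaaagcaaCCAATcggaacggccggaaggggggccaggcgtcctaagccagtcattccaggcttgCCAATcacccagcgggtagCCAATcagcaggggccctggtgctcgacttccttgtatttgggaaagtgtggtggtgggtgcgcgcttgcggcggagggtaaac
The Cux2 window is 80% G and C against a median of 52.4% over 32841 promoters of the same length, and it holds 0 of these motifs. The Pou3f2 window holds 2 and the Pou3f3 window 3. Of all 32841 promoters, 33.9% hold at least 1 and 2.79% hold 3 or more. The Cux1 window holds 0, as does an alternative Cux2 window of 55.2% G and C, and of the pair of Rorb windows 1 holds a single motif and the other holds 0. These letters are a description of the windows and were not tied to binding.

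Levels are given in CPM, counts scaled to a common library size with TMM, and levels of different genes are compared only in FPKM, which divides by transcript length. A change is a log2 fold change, given with its standard error (SE), from a quasi-likelihood fit in edgeR over 14311 genes and all 12 libraries. "Rose" and "fell" are kept for changes with an edgeR p under 0.05 after Benjamini-Hochberg adjustment over those genes. Totals ran from 11593202 to 17670103 counts per library. The E14.5 HARE5Hs/Hs replicate 3 stood apart, with the lowest total, the fewest detected genes (14537) and hardly any RNA of neighbouring tissue: Ttr, a choroid plexus gene, was at 0.364 CPM and Col1a1, a collagen gene of the meninges, at 1.55 CPM. In the other 11 libraries Ttr ran from 14.3 to 635 CPM and Col1a1 from 13.8 to 342 CPM. Fzd8 itself ran from 49.8 to 82.1 CPM, and the genotypes differed by 0.09 at E12.5 (SE 0.18) and 0.02 at E14.5 (SE 0.18), neither passing (edgeR adjusted p = 1 and 0.975).

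The mean of Cux2 was higher in E14.5 HARE5Hs/Hs cortex than in any other group. Its lowest embryo there, at 45.3 CPM, lay just below the highest E12.5 WT embryo, at 46.7 CPM. Replicates 1, 2 and 3 of E14.5 WT had 32.9, 33.1 and 30.8 CPM, and those of E14.5 HARE5Hs/Hs had 45.3, 70.1 and 63.5 CPM. The 3 HARE5Hs/Hs embryos all lay above the 3 WT embryos, and replicate 1 was the lowest of them. The group means were 32.3 ± 1.27 and 59.6 ± 12.8 CPM (SD, n = 3), a difference of 0.88 (SE 0.14), or 1.85-fold. This is the difference for which Cux2 was chosen. It was 0.75 without HARE5Hs/Hs replicate 2, 0.84 without replicate 3, the library that stood apart, and 1.07 without replicate 1. Over all genes 0% passed for this contrast in edgeR. At an unadjusted p under 0.05 there were 1708, and DESeq2 called 35.

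At E12.5 the order of the genotypes was the opposite. The WT embryos had 38.4, 39.2 and 46.7 CPM of Cux2, and the HARE5Hs/Hs embryos had 35.5, 33.2 and 33.3 CPM. The 3 HARE5Hs/Hs embryos all lay below the 3 WT embryos, with means of 41.4 ± 4.61 and 34.0 ± 1.31 CPM (SD, n = 3). The difference of −0.28 (SE 0.14) did not pass (edgeR adjusted p = 1). Without E12.5 WT replicate 3, the highest of these embryos, it was −0.19. Groups that do not overlap in this direction were seen for 3.81% of genes at E12.5. Over all genes 0% passed at E12.5 in edgeR, with 322 at an unadjusted p under 0.05 and 0 in DESeq2.

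**Figure D1:**
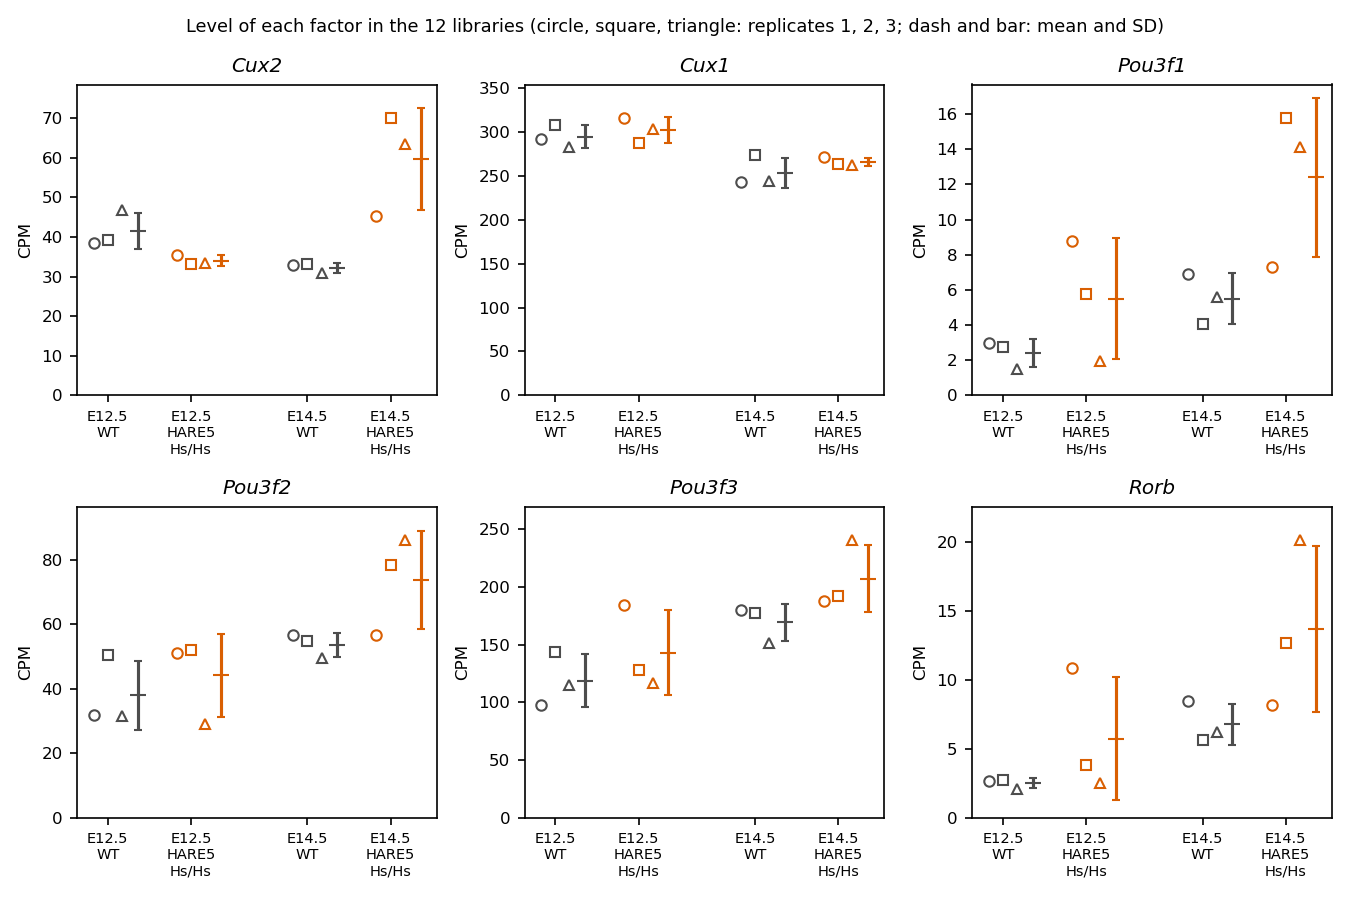
Level of each factor in CPM (vertical axes, linear from 0) by group, with 1 symbol per embryo and the mean and SD beside them. Cux2 in E14.5 HARE5Hs/Hs lies between 45.3 and 70.1 CPM, while E14.5 WT lies between 30.8 and 33.1 CPM, and Cux1 is lower at E14.5 than at E12.5 in every embryo.

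These group means also set the course of Cux2 with age, and no test is given because the E14.5 libraries chose the gene. In WT it was lower at E14.5 than at E12.5 by a log2 change of −0.36 (SE 0.14), with no overlap of the libraries, as for 49.1% of all genes. In HARE5Hs/Hs it was higher at E14.5 by 0.81 (SE 0.14), again with no overlap, as for 58.5% of all genes. The authors' deposited tables give −0.38 (SE 0.16) in WT and 0.81 (SE 0.16) in HARE5Hs/Hs. The mean of these opposite changes was 0.22 (SE 0.10), and it ran from 0.16 to 0.30 with 1 library left out.

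Cux1, the relative of Cux2 within the cut family, was far more abundant, fell slightly with age and was nearly level between genotypes. For Cux1, the E12.5 WT embryos had 292, 309 and 283 CPM, and the E12.5 HARE5Hs/Hs embryos had 316, 287 and 303 CPM. The E14.5 WT embryos had 243, 274 and 244 CPM, and the E14.5 HARE5Hs/Hs embryos had 271, 264 and 263 CPM. Every E14.5 embryo lay below every E12.5 embryo of its genotype and of the other. Averaged over genotypes Cux1 fell by 0.20 on the log2 scale (SE 0.05, edgeR adjusted p = 0.00396), and 33.1% of all genes showed such a lack of overlap in either direction. Between genotypes it differed by 0.04 at E12.5 (SE 0.07, edgeR adjusted p = 1) and 0.07 at E14.5 (SE 0.07), or 0.14 without E14.5 WT replicate 2, with overlapping libraries at both ages. Counts per gene do not separate the cut-repeat transcripts from those of CASP.

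Within each library, the FPKM of Cux2 was between 0.106 and 0.243 times that of Cux1. The ratio lay between 0.124 and 0.149 in E12.5 WT and between 0.106 and 0.109 in E12.5 HARE5Hs/Hs. At E14.5 it lay between 0.111 and 0.125 in WT and reached 0.157, 0.243 and 0.231 in HARE5Hs/Hs replicates 1, 2 and 3. The 3 highest ratios of the 12 libraries were thus those of E14.5 HARE5Hs/Hs, where the numerator was the chosen gene. The log2 ratio went from a mean of −2.90 to −3.10 with age in WT and from −3.22 to −2.27 in HARE5Hs/Hs.

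The 3 Pou3f genes rose with age, and the least abundant of them had the largest fold. For Pou3f1, the E12.5 WT embryos had 2.99, 2.74 and 1.51 CPM, and the E12.5 HARE5Hs/Hs embryos had 8.81, 5.76 and 1.93 CPM. The E14.5 WT embryos had 6.90, 4.05 and 5.58 CPM, and the E14.5 HARE5Hs/Hs embryos had 7.30, 15.8 and 14.1 CPM. The embryos of E12.5 HARE5Hs/Hs spread widely, from within the WT range to above the E14.5 WT embryos. Averaged over genotypes Pou3f1 rose by 1.18 (SE 0.34, edgeR adjusted p = 0.0103). Its genotype difference at E12.5, 1.19 (SE 0.49), did not pass (edgeR adjusted p = 1), and it was 0.68 without HARE5Hs/Hs replicate 1. At E14.5 the difference was 1.17 (SE 0.47), with all 3 HARE5Hs/Hs embryos above all 3 WT embryos.

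Pou3f2 moved less and from a higher level. For Pou3f2, the E12.5 WT embryos had 31.8, 50.4 and 31.6 CPM, and the E12.5 HARE5Hs/Hs embryos had 51.1, 52.1 and 29.1 CPM. The E14.5 WT embryos had 56.6, 54.7 and 49.4 CPM, and the E14.5 HARE5Hs/Hs embryos had 56.7, 78.4 and 86.1 CPM. Each E12.5 group mixed low and high embryos, and its highest embryo exceeded the lowest of E14.5 WT. Averaged over genotypes Pou3f2 rose by 0.62 (SE 0.17, edgeR adjusted p = 0.00709). Between genotypes it differed by 0.22 at E12.5 (SE 0.24, edgeR adjusted p = 1), which became 0.08 without HARE5Hs/Hs replicate 2 and 0.48 without WT replicate 2, and by 0.46 at E14.5 (SE 0.23). The E14.5 groups did not overlap, but HARE5Hs/Hs replicate 1, at 56.7 CPM, lay next to the highest WT embryo, and without replicate 3 the difference was 0.34.

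Pou3f3 was the most abundant of the 3. For Pou3f3, the E12.5 WT embryos had 98.1, 144 and 115 CPM, and the E12.5 HARE5Hs/Hs embryos had 185, 128 and 117 CPM. The E14.5 WT embryos had 180, 177 and 151 CPM, and the E14.5 HARE5Hs/Hs embryos had 188, 193 and 241 CPM. Within each genotype all E14.5 embryos lay above all E12.5 embryos, and across genotypes E12.5 HARE5Hs/Hs replicate 1 exceeded the E14.5 WT embryos. Averaged over genotypes Pou3f3 rose by 0.52 (SE 0.13, edgeR adjusted p = 0.00359). Between genotypes it differed by 0.27 at E12.5 (SE 0.18, edgeR adjusted p = 1), or 0.04 without HARE5Hs/Hs replicate 1 and 0.43 without WT replicate 2. At E14.5 it was 0.29 (SE 0.18), with the HARE5Hs/Hs embryos all higher, or 0.17 without replicate 3.

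The balance among the Pou3f genes was compared within libraries, where scaling cancels. The log2 ratio of Pou3f2 to Pou3f1 went from 2.50 at E12.5 to 1.86 at E14.5, averaged over genotypes, and that of Pou3f3 to Pou3f1 from 5.27 to 4.52. Neither change, −0.64 or −0.75, passed (adjusted p = 0.11 for both, 2-sided exact permutation of ages within genotype, adjusted over 4 ratios with that of Cux2 to Cux1, n = 3 per group, 0.005 being the smallest p possible). The ratio of Pou3f3 to Pou3f2 was the steadiest, with a change of −0.11 (adjusted p = 0.42, same exact permutation test) that ran from −0.22 to −0.04 with 1 library left out. Its FPKM ratio lay between 5.19 and 8.49 in all 12 libraries.

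Rorb was low throughout and rose with age. For Rorb, the E12.5 WT embryos had 2.68, 2.74 and 2.07 CPM, and the E12.5 HARE5Hs/Hs embryos had 10.8, 3.79 and 2.53 CPM. The E14.5 WT embryos had 8.43, 5.60 and 6.24 CPM, and the E14.5 HARE5Hs/Hs embryos had 8.18, 12.7 and 20.1 CPM. A single E12.5 HARE5Hs/Hs embryo, replicate 1, exceeded all 3 E14.5 WT embryos. Averaged over genotypes Rorb rose by 1.34 (SE 0.34, edgeR adjusted p = 0.00479). HARE5Hs/Hs differed from WT by 1.19 at E12.5 (SE 0.49, edgeR adjusted p = 1) and 0.34 without that embryo. At E14.5 it was 1.01 (SE 0.46), with overlapping libraries, and 0.63 without HARE5Hs/Hs replicate 3.

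Of the 5 factors other than Cux2, 4 rose and 1 fell with age when genotypes were averaged. Over all genes 56.8% passed for this contrast, 28.5% higher and 28.3% lower, so a call with age is common in this tissue. Within WT, where 35.2% of genes passed, 3 of the 5 factors other than Cux2 passed: Cux1 fell (−0.22, SE 0.07, edgeR adjusted p = 0.0290), while Pou3f3 (0.51, SE 0.18, edgeR adjusted p = 0.0410) and Rorb (1.43, SE 0.49, edgeR adjusted p = 0.0378) rose. Within HARE5Hs/Hs, where 45.7% passed, 4 of the 5 passed. Cux1 fell there (−0.18, SE 0.07, edgeR adjusted p = 0.0448). Pou3f2 (0.74, SE 0.23, edgeR adjusted p = 0.0221), Pou3f3 (0.53, SE 0.18, edgeR adjusted p = 0.0272) and Rorb (1.25, SE 0.47, edgeR adjusted p = 0.0445) rose. The Rorb value was 2.12 without E12.5 replicate 1 and 0.88 without E14.5 replicate 3. With the replicate number as a block Cux1 no longer passed in HARE5Hs/Hs (edgeR adjusted p = 0.0609) and Pou3f1 did (1.32, edgeR adjusted p = 0.0491), while in a fit of the 6 HARE5Hs/Hs libraries alone Rorb no longer passed (edgeR adjusted p = 0.104).

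These calls within a genotype were not stable when 1 embryo was left out, which also makes its group smaller. Over all genes fewer passed as well, between 3245 and 4843 in place of 5041 in WT. In HARE5Hs/Hs between 4930 and 6443 passed in place of 6538. In WT 0 of the 5 passed when E12.5 replicate 3 or E14.5 replicate 1 was left out, 1 passed when E12.5 replicate 1 or E14.5 replicate 2 or 3 was, and 2 passed when E12.5 replicate 2 was. In HARE5Hs/Hs 0 passed when replicate 3 of either age was left out, 1 when replicate 2 of either age was, and 4 when replicate 1 of either age was. In the authors' deposited DESeq2 table for WT, Pou3f1, Pou3f3 and Rorb have an adjusted p under 0.05 (0.0393, 0.0116 and 0.0448). Cux1 and Pou3f2 do not (0.0774 and 0.319). Their DESeq2 table for HARE5Hs/Hs has Pou3f1 and Pou3f3 under 0.05 (0.0249 and 0.00371). There Cux1, Pou3f2 and Rorb, which passed in edgeR, are above it (0.106, 0.0798 and 0.0628).

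**Figure D2:**
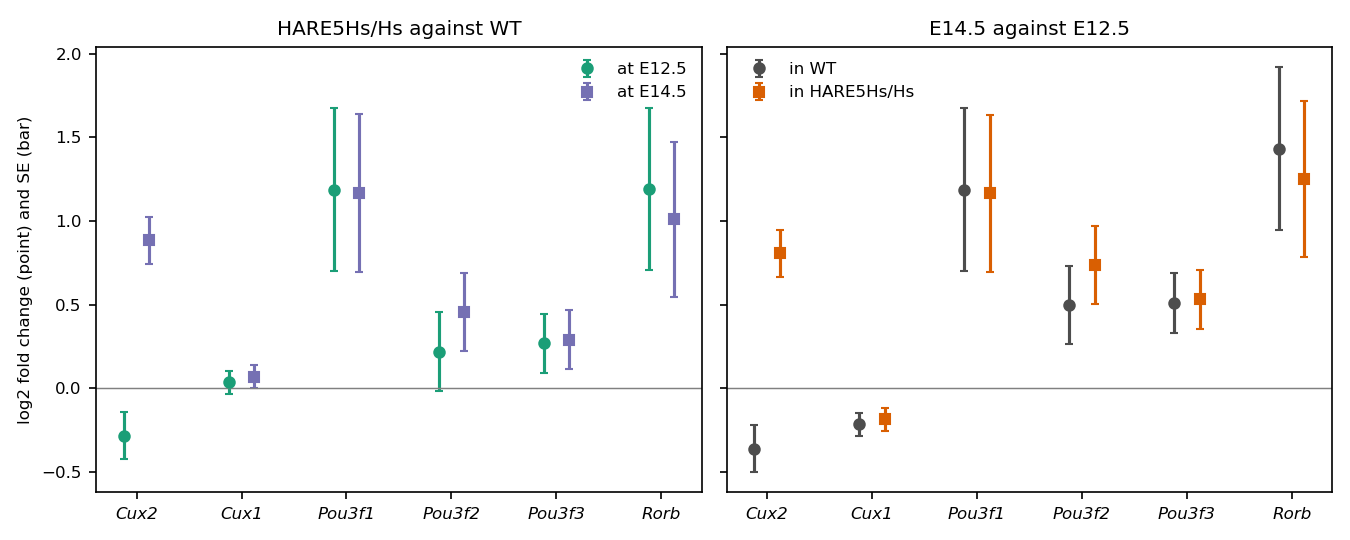
Log2 fold change of each factor (points) with its SE (bars), between genotypes at each age on the left and between ages in each genotype on the right. Cux2 lies at −0.28 and 0.88 on the left and at −0.36 and 0.81 on the right, on either side of 0, while the points of each of the other 5 factors have the same sign within a panel.

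Between genotypes at E14.5, 4 of the 6 factors had no overlap of libraries, all with HARE5Hs/Hs higher: Cux2, Pou3f1, Pou3f2 and Pou3f3. The share of all genes with that pattern was 9.48%. The contrast chose Cux2, and nothing is read from this count. At E12.5, Cux2 was the sole factor without overlap, with HARE5Hs/Hs lower. Cux2 was thus the factor whose libraries separated in opposite directions at the 2 ages. That pattern was shown by 64 of the 14311 genes tested (0.447%), of which 28 had HARE5Hs/Hs low and then high. Its E14.5 side is the difference that chose Cux2, so nothing is read from this share either. The E12.5 side, HARE5Hs/Hs lower with no overlap, was shown by 3.81% of all genes. Whether the genotype difference itself changed with age was not tested, since the E14.5 difference chose the gene.

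Per transcript length, the factors kept nearly the same order in all 4 groups. Cux1 and Pou3f3 were the most abundant, Cux2 and Pou3f2 came next, and Pou3f1 and then Rorb were lowest. In E12.5 WT Cux1 (60.1 to 64.5 FPKM) lay above Pou3f3 (34.2 to 50.1 FPKM). In E12.5 HARE5Hs/Hs (61.9 to 68.0 against 40.5 to 64.3 FPKM) and E14.5 WT (53.1 to 59.3 against 51.8 to 62.2 FPKM) their libraries overlapped. In E14.5 HARE5Hs/Hs the order was reversed, with Cux1 between 56.2 and 58.7 FPKM and Pou3f3 between 65.2 and 84.4 FPKM.

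Cux2 and Pou3f2 could not be ranked in most groups. Cux2 lay between 6.16 and 6.64 FPKM in E14.5 WT, below Pou3f2 at 7.99 to 9.24 FPKM, and the libraries overlapped in the other 3 groups. In E14.5 HARE5Hs/Hs the means were close, at 12.1 ± 2.66 FPKM for Cux2 and 12.1 ± 2.57 FPKM for Pou3f2 (SD, n = 3). Pou3f1 went from 0.857 ± 0.282 FPKM in E12.5 WT to 4.42 ± 1.62 FPKM in E14.5 HARE5Hs/Hs. Rorb went from 0.275 ± 0.0405 to 1.56 ± 0.724 FPKM between the same groups.

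**Figure D3:**
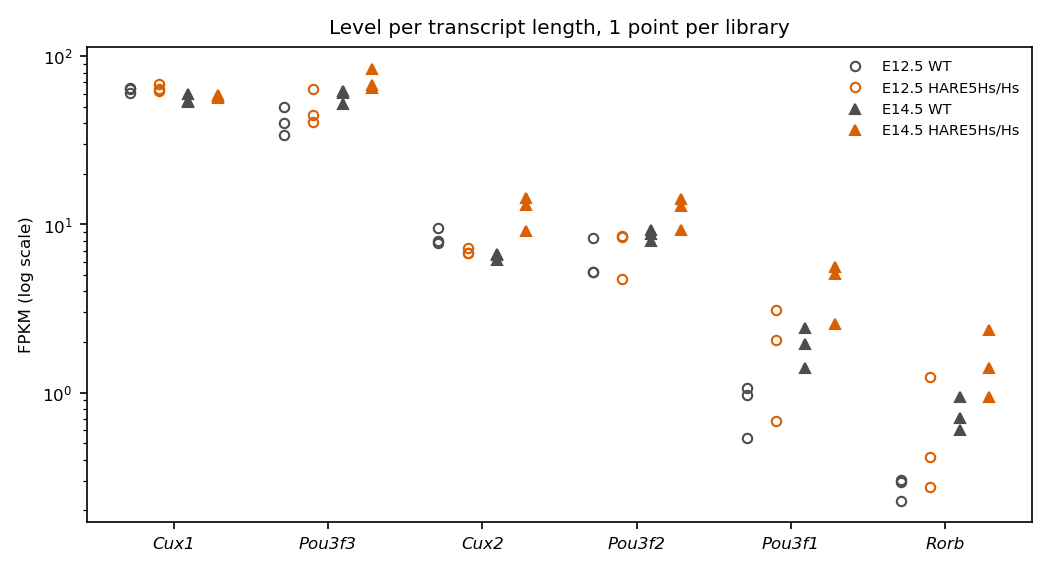
Level per transcript length of each factor in FPKM (log axis), with 1 point per library coloured by genotype and shaped by age. Cux1 and Pou3f3 share the top, Cux2 and Pou3f2 lie in the middle between 4.78 and 14.3 FPKM, and Rorb is lowest, between 0.228 and 2.36 FPKM.

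Relatives and neighbours of these factors went both ways with age. Of 12 tested relatives, 4 rose and 3 fell averaged over genotypes, beside 28.5% and 28.3% of all genes, so these shares are near the background (median 0.38, against −0.02 over all genes tested). Satb1, a chromatin organiser, rose by 0.40 (SE 0.06, edgeR adjusted p = 0.000229). Pou6f1, another POU factor, rose by 1.64 (SE 0.19, edgeR adjusted p = 2.5e-05). Pantr1, a long noncoding RNA transcribed next to Pou3f3, rose by 0.96 (SE 0.15, edgeR adjusted p = 0.000201). Pou3f4, the remaining member of the Pou3f class, fell by 0.88 (SE 0.32, edgeR adjusted p = 0.0308), unlike Pou3f1, Pou3f2 and Pou3f3. Rora, the nearest relative of Rorb, fell by 1.32 (SE 0.19, edgeR adjusted p = 0.000101). It went from 11.6 ± 2.58 to 4.45 ± 0.113 CPM in WT and from 10.1 ± 2.04 to 4.23 ± 1.49 CPM in HARE5Hs/Hs (SD, n = 3). Onecut3, a cut-homeodomain gene like Cux2, fell too (edgeR adjusted p = 0.000986), from 34 and 39 counts over the 3 embryos of each genotype at E12.5 to 0 and 1 at E14.5. Pou2f1 (0.17, SE 0.10), Pou2f2 (0.36, SE 0.19), Onecut2 (0.41, SE 0.31) and Pantr2 (0.75, SE 0.56) did not pass. Between genotypes 0 of the 12 passed at either age in edgeR or DESeq2, with 1 at an unadjusted p under 0.05 at each age, beside 2.25% of all genes at E12.5 and 11.9% at E14.5. Pantr1, beside Pou3f3, differed by 0.48 at E12.5 (SE 0.22, edgeR adjusted p = 1) and by −0.15 at E14.5 (SE 0.21, edgeR adjusted p = 0.793).

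Other genes of the cortical layers and their progenitors give the setting for the age changes. Averaged over genotypes, 28.5% of all genes rose and 28.3% fell. Of 12 other upper-layer genes 9 rose and 0 fell (median 1.84), among them the cadherin gene Cdh13 (3.87, SE 0.26, edgeR adjusted p = 8.43e-07), Unc5d, a netrin receptor gene (3.96, SE 0.34, edgeR adjusted p = 3.65e-06), and Mdga1 (1.62, SE 0.12, edgeR adjusted p = 1.66e-06). The rises of Pou3f1, Pou3f2, Pou3f3 and Rorb were all smaller than this median. Of 11 deep-layer genes 7 rose and 1 fell (median 0.72), with Bcl11b (2.02, SE 0.17), Zfpm2 (1.77, SE 0.22) and Tbr1 (1.41, SE 0.14) all rising. Of 12 intermediate progenitor genes 9 rose and 0 fell (median 0.78), including Insm1 (1.58, SE 0.14), Neurod1 (1.31, SE 0.12) and Elavl4 (1.14, SE 0.10). Of 10 young neuron genes all 10 rose (median 2.00), including Neurod6 (3.92, SE 0.39) and Gap43 (1.64, SE 0.15). Of 12 radial glia genes 3 rose, which is near the share of all genes, and 7 fell (median −0.33). Hes5 fell by 0.88 (SE 0.10) and Vim by 0.51 (SE 0.06), while Fabp7 rose by 0.86 (SE 0.10). Between genotypes 0 genes of these lists passed at either age in edgeR or DESeq2. At an unadjusted p under 0.05 there were 5 upper-layer, 2 deep-layer, 0 intermediate progenitor, 4 radial glia and 3 young neuron genes at E14.5, beside 11.9% of all genes, and at E12.5 there were 1 radial glia and 1 young neuron gene, beside 2.25% of all genes. The 2 of 11 deep-layer genes are thus near the background share. The E14.5 medians were 0.49 for upper-layer, 0.06 for deep-layer, 0.09 for intermediate progenitor, −0.03 for radial glia and 0.43 for young neuron genes, beside −0.01 over all genes.

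Some markers of other cells, like Cux2, had higher summed levels in E14.5 HARE5Hs/Hs than in E14.5 WT. The summed level of 14 interneuron and ventral telencephalon markers, genes of cells born below the cortex, was 98.1, 102 and 76.3 CPM in the WT embryos and 121, 207 and 173 CPM in the HARE5Hs/Hs embryos. The order of the 3 HARE5Hs/Hs embryos was the same as for Cux2, and the groups did not overlap. Lhx6, which defines interneurons of the medial eminence, stood at 11.1 ± 3.65 and 30.1 ± 10.2 CPM, and Sst, a peptide gene of such cells, at 4.66 ± 1.79 and 13.7 ± 3.54 CPM (SD, n = 3). Of the 14 markers, Dlx6 and Lhx8 were at 0 in E14.5 WT and Lhx8 in E14.5 HARE5Hs/Hs. At E12.5 the sums were 127, 94.5 and 74.6 CPM in the WT embryos and 250, 161 and 59.7 CPM in HARE5Hs/Hs, where the 3 HARE5Hs/Hs embryos had nearly equal Cux2. Of 13 tested markers 0 passed between genotypes at either age in edgeR. At E14.5, 1 had an unadjusted p under 0.05, beside 11.9% of all genes, so this count is not above the background. DESeq2 called 1 at E14.5. At E12.5 both counts were 0, beside 2.25% of all genes at an unadjusted p under 0.05. Their part in the Cux2 difference was not tested.

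Neuronal and blood genes also varied between embryos, and the young neuron sums of the E14.5 genotypes overlapped. The summed young neuron genes were 4537, 3862 and 3457 CPM in E14.5 WT and 4221, 5691 and 5992 CPM in E14.5 HARE5Hs/Hs. HARE5Hs/Hs replicate 1, which had the lowest value of its group for every factor except Cux1, was inside the WT range. At E12.5 HARE5Hs/Hs replicate 1 had a sum of 2346 CPM, while the other 5 embryos had 1295 to 1481 CPM, and the same embryo had the highest Pou3f1, Pou3f3 and Rorb of its age. Intermediate progenitor genes summed to 1333 to 1496 CPM in E14.5 WT and to 1458 to 1505 CPM in HARE5Hs/Hs, with overlap. The other upper-layer genes summed to 1005 to 1197 and 1162 to 1361 CPM, also with overlap. Erythroid markers summed to 2234, 736 and 1512 CPM in the E14.5 WT embryos and to 2502, 5724 and 4411 CPM in HARE5Hs/Hs, with no overlap. The order of the 3 HARE5Hs/Hs embryos was that of Cux2, as with the interneuron and ventral markers. The young neuron, deep-layer and other upper-layer sums had another order, highest in replicate 3. With 3 embryos few orders are possible, so nothing is read from the matches. All 7 tested erythroid markers had an unadjusted p under 0.05 at E14.5 (median 1.70), beside 11.9% of all genes. Of them 0 passed in edgeR and 1 passed in DESeq2. The part of any of these in the Cux2 difference was not tested.

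**Figure D4:**
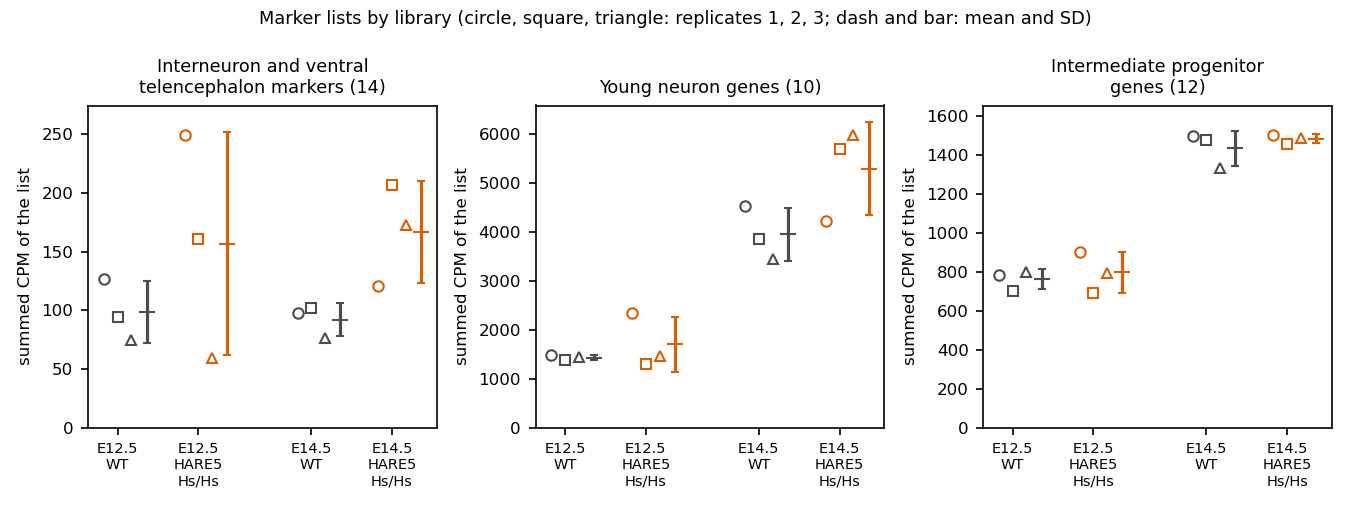
Summed CPM (vertical axes, linear from 0) of 3 marker lists by group, with 1 symbol per embryo and the mean and SD beside them. The interneuron and ventral sums of E14.5 HARE5Hs/Hs, 121 to 207 CPM, lie above those of E14.5 WT, 76.3 to 102 CPM, whereas the intermediate progenitor sums overlap.

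The other lists differed in how many of their markers fell with age, beside 28.3% of all genes. Averaged over genotypes, 0 rose and 7 fell of 10 meninges and mesenchyme markers, 0 and 5 of 7 diencephalon markers, 0 and 4 of 9 choroid plexus and hem markers, and 0 and 4 of 7 erythroid markers. Of 8 endothelial and pericyte markers 1 rose and 7 fell, of 8 Cajal-Retzius markers 1 rose and 4 fell, and of 8 microglia and macrophage markers 0 rose and 1 fell. The summed Cajal-Retzius level was nevertheless higher at E14.5, at 235 to 320 CPM in E12.5 WT and 619 to 649 CPM in E14.5 WT. That sum was higher because of Reln, which went from 97.7 ± 19.3 to 489 ± 32.4 CPM in WT (SD, n = 3). Every other marker of that list had a lower mean at E14.5 than at E12.5 in WT. Of 13 interneuron and ventral markers 4 rose and 3 fell, near the 28.5% and 28.3% of all genes. Lhx6 rose (2.66, SE 0.25, edgeR adjusted p = 5.95e-06), and Gsx2 of ventral progenitors fell (−4.02, SE 1.06, edgeR adjusted p = 0.00653). Without E14.5 HARE5Hs/Hs replicate 3, the library poorest in meninges and choroid plexus RNA, the same number of factors other than Cux2, 5 of 5, passed for the age change averaged over genotypes.

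The genes whose pattern over the 12 libraries lay nearest to that of Cux2 were Cdh4, Bend5, Cnnm2, Nr4a1 and Ppp1r13b. Nearness was the root mean square distance between centred log2 CPM profiles among 11267 genes with a mean of at least 5 CPM. It was 0.167 for Cdh4, a cadherin gene, and 0.213 for Ppp1r13b, against a median of 0.437 over all genes. Cdh4 stood at 105 ± 18.2, 92.4 ± 14.7, 81.6 ± 7.30 and 134 ± 28.1 CPM (SD, n = 3), in the order WT and HARE5Hs/Hs at E12.5, then WT and HARE5Hs/Hs at E14.5. Nr4a1, an activity-induced nuclear receptor gene, stood at 6.01 ± 0.396, 5.56 ± 0.267, 5.47 ± 0.0838 and 7.51 ± 1.62 CPM in the same groups. All 5 had their highest mean in E14.5 HARE5Hs/Hs, as the measure selects for. None of the other factors was near Cux2: Pou3f3 came closest at 0.390 (rank 3475), and Cux1 followed at 0.403 (rank 4097).

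Rorb and Pou3f1 lay close to each other. Rorb was the nearest of all genes to Pou3f1 (0.324, against a median of 1.01), and Pou3f1 ranked 3 for Rorb. Pou3f3 ranked 8 for Pou3f2 (0.207, against a median of 0.506), while Pou3f2 ranked 286 for Pou3f3. All of these distances are over the same 12 libraries, which share their depth and scaling.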

How the data were processed

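The 6 factors and all gene lists were chosen with earlier results of these data known. Cortex was dissected from single embryos and frozen, RNA was extracted with TRIzol, and libraries were made with a TruSeq Stranded mRNA kit, per the labels' protocols. STAR, DESeq2 and the build mm39 are named in the submitters' processing notes. The counting tool is given only through the words star_salmon in the names of the deposited data. For versions and the strand setting of the counting nothing is given in the sources used here. It is therefore not known whether reads of antisense genes annotated over Cux1, Cux2 (Gm3970, Gm15637) and Pou3f1 were kept apart from those of the factors.

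Per the file headers, 2 deposited tables, 1 per genotype, hold expected counts and FPKM of every library beside the authors' own age comparison (log2 fold change, SE, adjusted p-value). All deposited expected counts are whole, and neither they nor the FPKM differ between the tables (0 cells differ, tolerance 1e-09). The FPKM were used as deposited by the authors. Each table also has 12 columns of libraries outside the series, not used here. Library pairs within a group differed by more than sampling noise (chi-square per degree of freedom 11.9 to 25.8), so each counts as 1 replicate. Nothing says whether embryos of a group shared a litter.

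The counts were analysed in R 4.3.3 with edgeR 4.0.16: filterByExpr by group with a minimum count of 10 (14311 genes; 6454 had no count), TMM scaling and 1 mean per group over all 12 libraries. The 5 contrasts are 2-sided, with Benjamini-Hochberg adjustment over all genes tested and a threshold of 0.05. Each SE was taken as log2 fold change over the root of the quasi-likelihood F statistic. The scripts were tested on simulated data. Ratios of FPKM were compared by exact permutation of ages within genotype (400 arrangements). Age tests planned for Cux2, averaged over genotypes and as a ratio to Cux1, are not printed, because they use the E14.5 libraries that chose it. Named genes are the 6 factors, every tested relative, up to 4 genes of a list with the smallest p for the age change averaged over genotypes, the 5 genes nearest to Cux2, Fzd8, Ttr and Col1a1, apart from a few that are not reported here. Nearness used log2 CPM with a prior count of 2. Promoter windows were cut from RefSeq promoters of GRCm38.p6, with no conversion between builds. Alternatives were DESeq2 1.42.0, its size factors within edgeR, testing all genes with a count, keeping genes with a CPM of 1 or more in 3 libraries, the replicate block, only the libraries compared, each library left out in turn and, for ratios, counts in place of FPKM.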

Additional observations from a re-analysis of the deposited data

Results flagged for a closer look

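Cux2 drew attention because its libraries separated by genotype in opposite directions at the 2 ages. The HARE5Hs/Hs embryos were all lower than WT at E12.5 (−0.28, SE 0.14) and all higher at E14.5 (0.88, SE 0.14). The same 12 values, read by age, gave −0.36 (SE 0.14) in WT, with all E14.5 embryos lower, and 0.81 (SE 0.14) in HARE5Hs/Hs, with all E14.5 embryos higher. The difference between these changes was not tested, because the E14.5 libraries chose the gene.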

How the results depend on the processing

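Nothing in the labels says that a replicate number marks a shared litter, and not every pair correlated above 0.1: libraries with the same number correlated at 0.0963, 0.336 and 0.124 at E12.5 and at −0.112, −0.144 and −0.443 at E14.5 after group means were removed. With the replicate block, 7887 genes passed for age averaged over genotypes, 4714 in WT, 6248 in HARE5Hs/Hs and 0 between genotypes at either age. Of the 5 factors other than Cux2, 1 passed in WT with the block in place of 3: Pou3f3 (0.51, edgeR adjusted p = 0.0647) and Rorb (1.41, edgeR adjusted p = 0.0530) no longer did. In HARE5Hs/Hs 4 passed with the block, but Cux1 (edgeR adjusted p = 0.0609) no longer did and Pou3f1 (edgeR adjusted p = 0.0491) did. With no filter Cux1 passed neither in WT (edgeR adjusted p = 0.0666) nor in HARE5Hs/Hs (edgeR adjusted p = 0.0981). DESeq2 called 35 genes between genotypes at E14.5 in place of 0. With 1 library left out, between 3245 and 4843 genes passed for age in WT, between 0 and 19 between genotypes at E14.5 (19 without HARE5Hs/Hs replicate 1), between 0 and 2 of the 5 factors in WT and between 0 and 4 in HARE5Hs/Hs. The cause of these shifts was not tested. Leaving libraries out aside, 111 tested values for single genes kept their direction and their side of the threshold, 6 lost a call and 4 gained one. A further 47, given with no test, moved by less than the SD between replicates. A fit of only the libraries compared was not run for the averaged age change, which already uses all 12. Pou3f1 and Rorb rest on 119 and 123 counts over the 3 E12.5 WT embryos, which limits their precision.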
